A study of Mus musculus with 9 samples.

Results

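The lysosomal genes described here are 40 mouse genes of 5 roles: 7 lysosomal membrane proteins, 12 cathepsins and other peptidases, 11 glycosidases with a sulfatase, 7 lipid hydrolases and soluble helper proteins, and the 3 transcription factors Tfeb, Tfe3 and Mitf. A gene was taken as measured where a transcript cluster (the probes that the array groups for 1 transcript) was annotated with its symbol alone. This held for 38 of the 40 genes, among 30050 genes in all, and each of the 38 had 1 such cluster. Ctsd and Glb1 were left without a value because their clusters carry a second gene's symbol.

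Total RNA came from a culture that the labels call HL-1, an immortalized line of mouse atrial heart muscle cells, kept in DMEM with serum. DOX_IFNg cells had received 0.3 µM doxorubicin together with 20 ng/ml interferon gamma, DOX cells 0.3 µM doxorubicin alone, and Con cells phosphate-buffered saline, with 3 Affymetrix arrays for each group. Doxorubicin is an anthracycline cancer drug with known toxicity to the heart, and interferon gamma is a cytokine of T cells and natural killer cells. A group with interferon gamma alone was not analysed here, and no duration of treatment is stated in the sources used here. All cells were of 1 line, and nothing in the labels says that the arrays of a group came from separate cultures, so every p-value reflects the array-to-array spread alone, and that spread may be technical.

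Lysosomes are acidic compartments in which hydrolases break down proteins, glycans and lipids delivered by endocytosis and autophagy, and long-lived heart muscle cells rely on them to clear worn organelles. The hydrolases are made in the endoplasmic reticulum and mostly carried to the lysosome by mannose 6-phosphate receptors, while heavily glycosylated membrane proteins line its inner face. Tfeb, Tfe3 and Mitf are related transcription factors of the MiT/TFE family. They are held in the cytosol by phosphorylation at the lysosome surface, and once in the nucleus they bind E-box sequences of the CLEAR type in the promoters of lysosomal genes. The arrays measure RNA and not the location or phosphorylation of these factors.

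Values are the deposited log2 intensities, so a difference of 1 is a doubling. Differences were tested with limma across all 30050 genes in 1 fit over the 9 arrays, and a gene is said to have risen or fallen where the Benjamini-Hochberg adjusted p over all genes was under 0.05. Array medians lay between 4.08 and 4.17. A level of 4.69, the 95th percentile of 1714 olfactory and vomeronasal receptor genes, marks the range of signal of genes not expected in these cells. Of the 38 lysosomal genes 29 averaged above it, and Ctsc, Ctsh, Ctsk, Ctss, Ctsz, Gusb, Manba, Npc2 and Tfeb did not. Of 14 heart muscle markers only Tnnt2 and Nkx2-5 averaged above that level, while Myh6, Nppa, Myl7 and Gata4 did not. Most of these markers therefore do not bear out the heart muscle label. Of 12 skeletal muscle markers 7 were above it, among them Acta1 (8.41 in Con cells), Myog (8.18) and Myod1 (6.03). The identity of the cells was not tested. Con replicate 1, all DOX arrays and DOX_IFNg replicates 1 and 2 shared the table's highest value, 19.9315, and pairs of them held 82 to 186 exactly identical values, against 1 to 17 for the other pairs.

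Doxorubicin alone was accompanied by higher RNA of many lysosomal genes. In DOX cells 20 of the 38 genes rose relative to Con cells and none fell, a share of 52.6% higher, where 8.06% of all genes rose and 7.53% fell. In a refit on the 18268 protein-coding genes alone, adjusted over those, 13.6% rose and 21 of the 38 lysosomal genes did. In a refit on the 12127 genes above the receptor level 20.3% rose and 21 of the 29 lysosomal genes among them did. Without a correction for the number of genes, 25 of the 38 had a limma p under 0.05, among them Lipa as the only lower one. The share of all genes at this unadjusted p was not counted for DOX minus Con. This count and later unadjusted counts against Con therefore stand without a share to compare them with. The difference was positive for 34 of the 38 genes, with a median of 0.28, where the median of all genes was -0.015. On every DOX array 25 of the genes lay above every Con array, against 15.7% of all genes, and 1 lay below, against 17.2%. The size was modest for most of them: 4 of the 20 (Ctsf, Tpp1, Ctsl and Ctsb) at least doubled, and 8 changed by less than 1.5-fold. Counts from bulk RNA of a culture cannot tell more RNA per cell from a larger share of cells that make it.

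**Figure D1:**
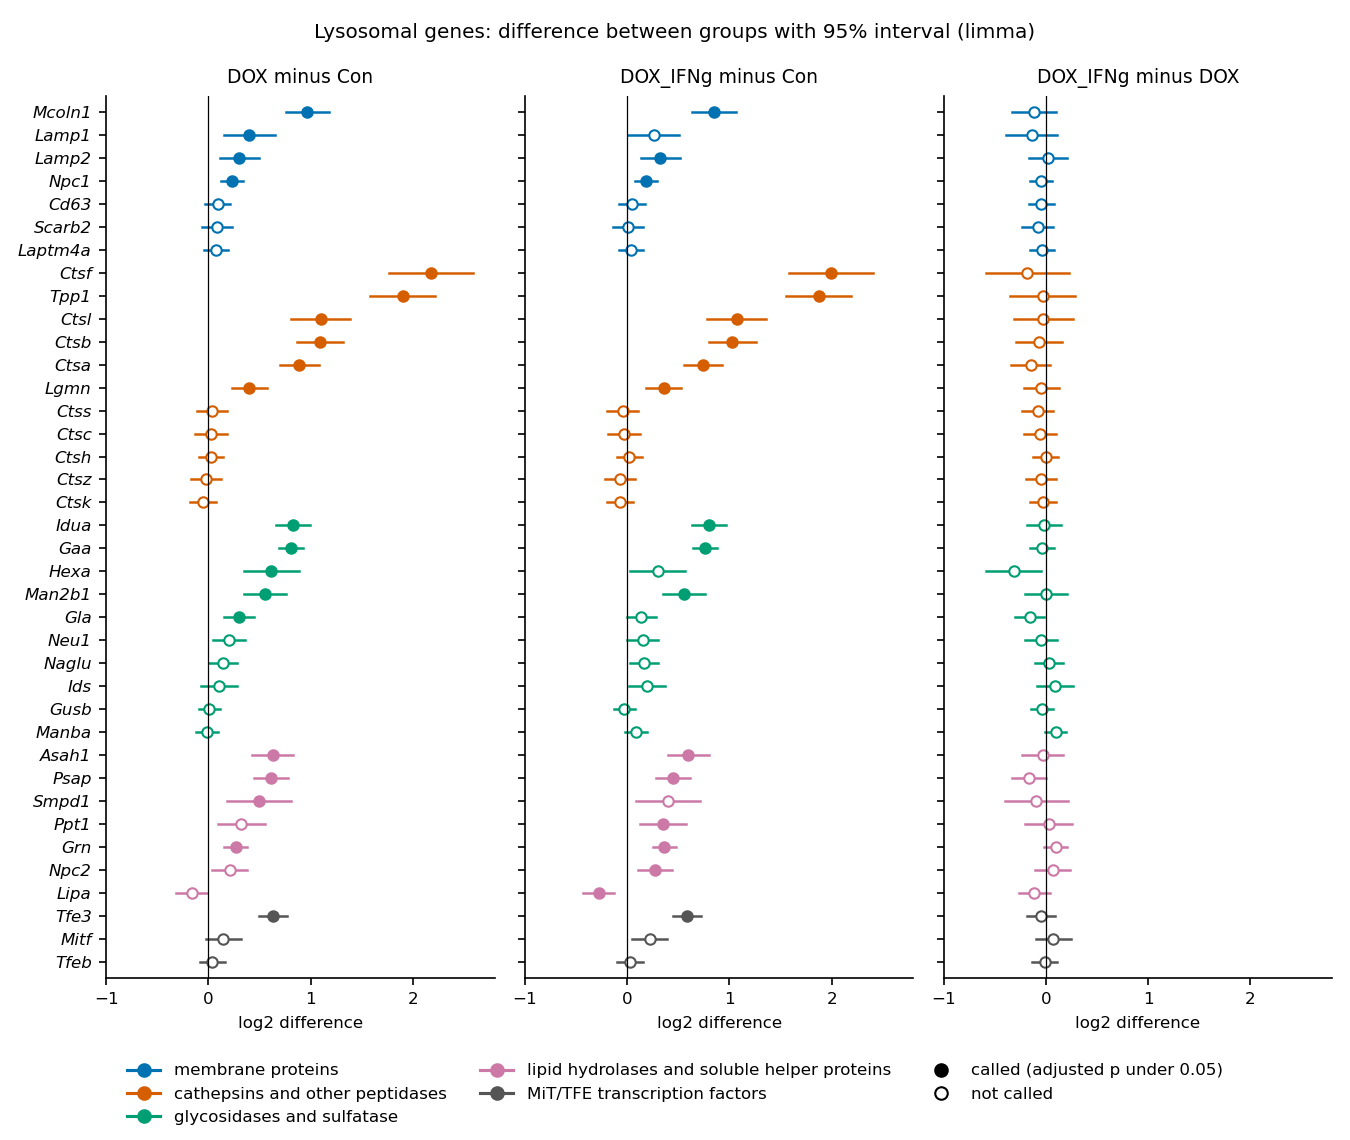
Log2 differences (horizontal axis) of the 38 measured lysosomal genes (rows, coloured by role) in DOX minus Con, DOX_IFNg minus Con and DOX_IFNg minus DOX. Bars are limma 95% intervals, and filled points mark adjusted p under 0.05. To the right lie 20 genes as filled points in DOX minus Con and 18 in DOX_IFNg minus Con, whereas the panel of DOX_IFNg minus DOX holds none.

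Of the 3 transcription factors, Tfe3 rose and the changes of Tfeb and Mitf did not pass the test. Tfe3 lay at 5.39, 5.36 and 5.27 on the DOX arrays, against 4.72, 4.73 and 4.68 on the Con arrays, with no overlap between the groups. The difference was 0.63 (SE 0.060, adjusted p = 0.000197), or 1.55-fold. Tfeb lay at 4.52, 4.51 and 4.60 on the DOX arrays, against 4.45, 4.50 and 4.57 on the Con arrays. These values overlap and lie under the receptor level, and the 0.037 difference had an adjusted p of 0.741. Mitf lay at 5.84, 5.73 and 5.73 on the DOX arrays, against 5.65, 5.69 and 5.52 on the Con arrays. All DOX values of Mitf were above all Con values, but the 0.15 difference did not pass (adjusted p = 0.26).

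Promoter sequences are shown because the known binding element of these factors can be looked for in them. Windows from 250 bases before to 50 bases after the annotated start came from RefSeq (mouse assembly GRCm38.p6), which listed 44 windows for 36 of the 40 genes. Ctsb, Ctsh, Npc1 and Asah1 were not in the table. An E-box CACGTG, which reads the same on both strands, was in a window of 11 of the 36 genes (30.6%), against 2187 of 27025 genes with a window (8.09%). It was in a window of 265 of the 1757 genes with a window that rose in DOX cells (15.1%). The longer palindrome TCACGTGA, which contains the E-box, was in windows of Ctsa, Ctsd, Gla and Mcoln1, 11.1% against 1.12% of all genes. The M-box TCATGTG, or CACATGA on the other strand, was in windows of Ctsa, Ctss, Gla, Grn, Ppt1, Scarb2 and Tpp1, 19.4% against 4.31% of all genes. Of these 7 genes Ctsa, Gla, Grn and Tpp1 rose in DOX cells, and Ctss, Ppt1 and Scarb2 did not. Among genes with a window that rose in DOX cells, 3.59% held TCACGTGA and 3.30% held the M-box. Of all 620 tested genes with an M-box in a window, 58 rose. A match describes letters in a window and was not tested as a binding site.

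Stretches of 30 to 100 bases that hold the motifs are printed for some of the genes with a motif, 5′ to 3′ on the gene's strand. All genes printed rose in DOX cells. Naglu, Ctss, Ppt1 and Scarb2, which hold a motif and did not rise, are not printed, nor are Lgmn and Grn, which rose. Capitals mark the E-box, and in Tpp1 the M-box.
Mcoln1, chr8:3500419-3500518, + strand: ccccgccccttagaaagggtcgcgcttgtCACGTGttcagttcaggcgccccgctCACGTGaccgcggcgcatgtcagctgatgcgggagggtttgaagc
Lamp1, chr8:13159061-13159160, + strand: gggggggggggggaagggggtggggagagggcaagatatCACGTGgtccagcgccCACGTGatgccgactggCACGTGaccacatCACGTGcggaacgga
Ctsf, chr19:4855045-4855124, + strand: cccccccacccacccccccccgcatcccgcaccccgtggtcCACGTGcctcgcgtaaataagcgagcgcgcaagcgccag
Gaa, chr11:119267783-119267862, + strand: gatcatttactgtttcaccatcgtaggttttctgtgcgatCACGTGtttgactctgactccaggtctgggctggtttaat
Gla, chrX:134601176-134601255, - strand: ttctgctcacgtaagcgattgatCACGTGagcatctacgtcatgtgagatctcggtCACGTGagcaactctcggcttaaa
Ctsl, chr13:64370691-64370770, - strand: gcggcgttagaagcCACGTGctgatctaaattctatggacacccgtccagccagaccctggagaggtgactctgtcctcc
Ctsa, chr2:164833757-164833786, + strand: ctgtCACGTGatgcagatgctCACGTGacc
Tpp1, chr7:105752206-105752235, - strand: atgcTCATGTGacttatCACATGActacag

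Lamp1 carried 4 E-boxes in the printed stretch before its start, Mcoln1 and Gla 2 each, and Ctsa 1 on either side of its start. Of the 11 genes with an E-box in a window 9 were measured, and 8 of these rose in DOX cells (all but Naglu), with a median difference of 0.80 and a range of 0.14 to 2.18. Of the 25 genes with windows but no E-box 9 rose, with a median of 0.15 and a range of -0.16 to 1.90. The 2 sets also differ in signal level. All measured genes with an E-box averaged above the receptor level. Of those without one, Ctsc, Ctsk, Ctss, Ctsz, Gusb, Manba, Npc2 and Tfeb averaged under it, and none of these rose. Of the 4 genes with no listed window 3 rose. Over all tested genes with a window, 265 of the 1548 with an E-box rose in DOX cells, and 1757 of the 17282 in all. These shares are a description, and no test was made of them. Tfe3 itself had no E-box in its windows, and neither did Tpp1, whose 2 M-boxes lie just after its start.

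**Figure D2:**
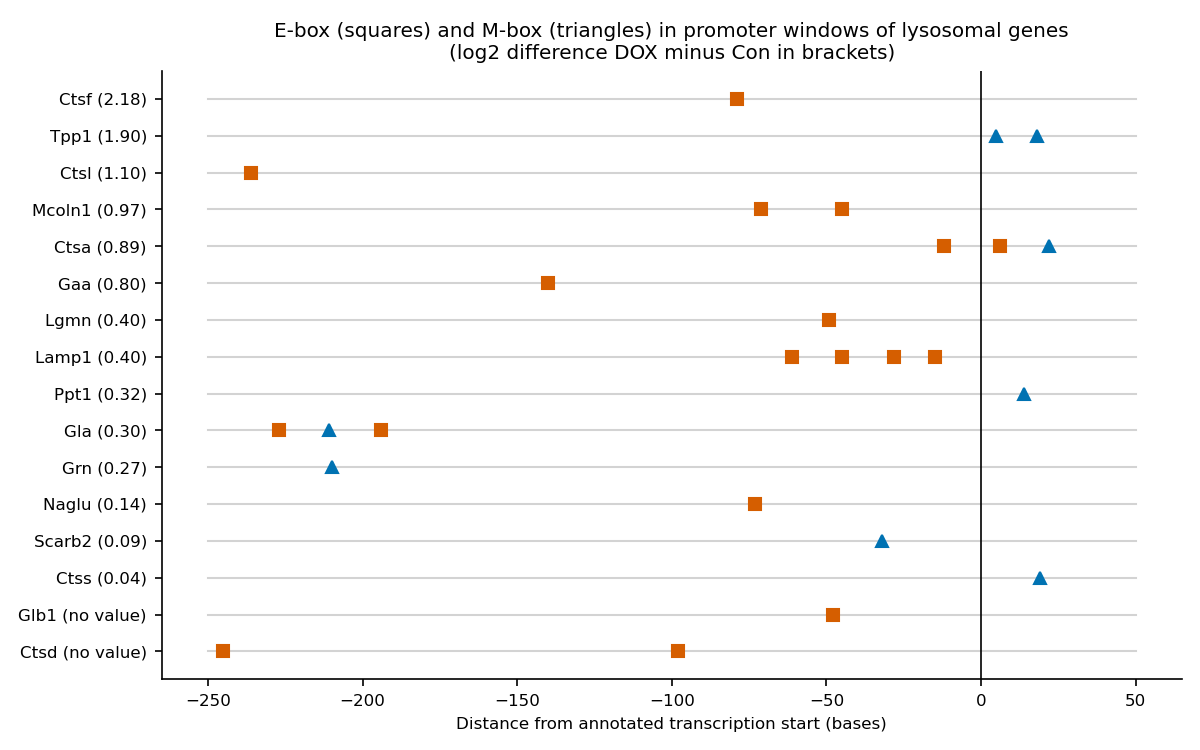
Positions of E-boxes (squares) and M-boxes (triangles) by distance in bases from the annotated start (horizontal axis) in the RefSeq promoter windows of the 16 lysosomal genes with either motif, with the log2 difference of DOX minus Con in brackets after each name. Of the 9 measured genes with an E-box 8 rose, where 265 of all 1548 tested genes with an E-box rose. Ctsd and Glb1 carry an E-box but have no value of their own.

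Among the cathepsins and other peptidases, which cut proteins inside the lysosome, 6 of 11 measured genes rose in DOX cells and none fell, with a median difference of 0.40. Ctsf, a cysteine cathepsin, lay at 7.71, 7.78 and 7.17 on the DOX arrays, against 5.41, 5.31 and 5.41 on the Con arrays. The groups were far apart, and DOX replicate 3 was the lowest of the DOX arrays. The difference was 2.18 (SE 0.18, adjusted p = 9.83e-05), a 4.52-fold rise, the largest of the 38 genes. Tpp1, tripeptidyl peptidase 1, removes tripeptides from the ends of proteins and is lost in a form of neuronal ceroid lipofuscinosis. It lay at 10.54, 10.33 and 10.50 on the DOX arrays, against 8.78, 8.69 and 8.21 on the Con arrays. No values overlapped, and the difference of 1.90 (SE 0.14, adjusted p = 5.32e-05) corresponds to 3.73-fold.

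Ctsl and Ctsb are the broadly expressed cysteine cathepsins L and B. Ctsl lay at 7.96, 8.13 and 7.88 on the DOX arrays, against 6.74, 7.14 and 6.80 on the Con arrays. Ctsb lay at 9.12, 9.20 and 8.83 on the DOX arrays, against 7.95, 7.95 and 7.98 on the Con arrays. Neither gene overlapped between the groups, and the SD of the Con arrays of Ctsb was only 0.02. Ctsl rose 2.14-fold (adjusted p = 0.000561) and Ctsb 2.13-fold (adjusted p = 0.00016). Ctsa, a serine carboxypeptidase that also protects beta-galactosidase and neuraminidase in a complex, lay at 6.32, 6.32 and 6.02 on the DOX arrays, against 5.36, 5.33 and 5.31 on the Con arrays. Its difference was 0.89 (SE 0.083, adjusted p = 0.000184), and no values overlapped. Lgmn, legumain, cuts after asparagine and lay at 6.35, 6.29 and 6.37 on the DOX arrays, against 5.92, 5.97 and 5.93 on the Con arrays, a difference of 0.40 (adjusted p = 0.00651).

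The other 5 measured peptidases stayed under the receptor level and did not pass the test, with differences between -0.049 and 0.035. They were Ctsc, which activates serine proteases of immune granules, Ctsh and Ctsz, which trim protein ends, Ctsk, the collagen-cutting cathepsin of osteoclasts, and Ctss, a cathepsin of antigen-presenting cells. Ctss lay at 3.93, 3.96 and 3.96 on the DOX arrays, against 3.82, 3.95 and 3.97 on the Con arrays, so its groups overlapped.

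**Figure D3:**
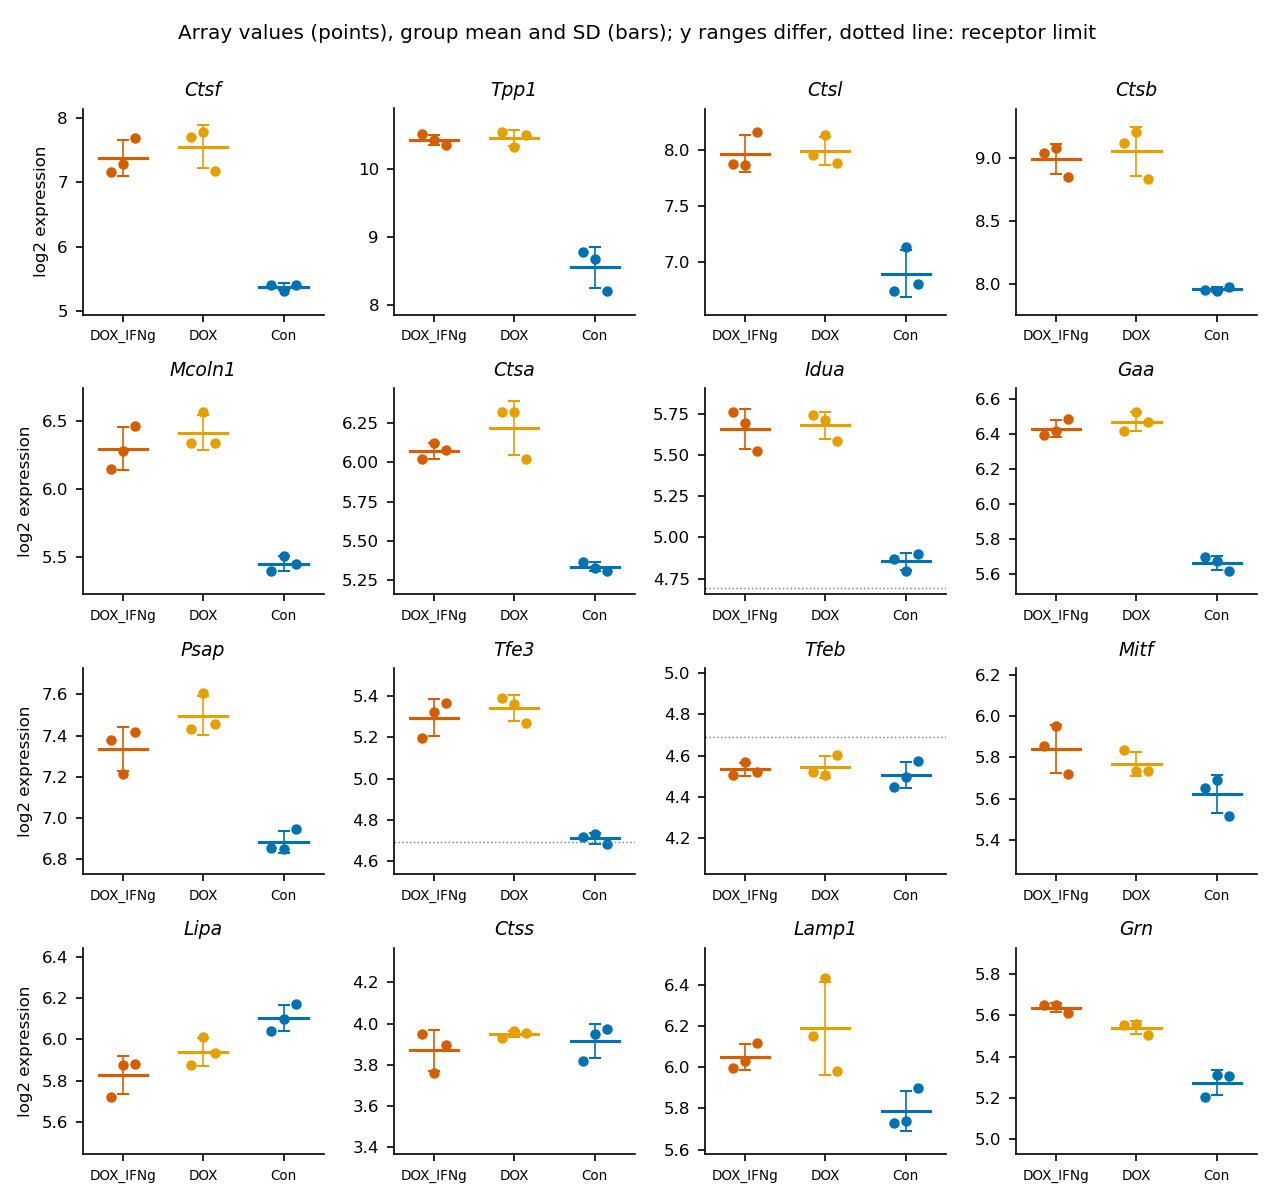
Deposited log2 values (vertical axis, range set per panel) of 16 lysosomal genes on each array, grouped as DOX_IFNg, DOX and Con, with points for arrays, a line for the group mean, bars for the SD and a dotted line at the receptor level of 4.69 where it falls in the range. The DOX and DOX_IFNg points of Ctsf, Tpp1, Ctsl and Ctsb lie above every Con point, while those of Tfeb and Ctss overlap the Con points.

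Of the 7 membrane proteins 4 rose in DOX cells and all 7 differences were positive, with a median of 0.23. Mcoln1 encodes mucolipin-1, the channel that lets calcium out of the lysosome. It lay at 6.34, 6.57 and 6.34 on the DOX arrays, against 5.40, 5.50 and 5.45 on the Con arrays. The groups were separate, and the difference of 0.97 (SE 0.093, adjusted p = 0.000224) corresponds to 1.96-fold. Npc1, the membrane protein that exports cholesterol from lysosomes, lay at 4.86, 4.77 and 4.80 on the DOX arrays, against 4.57, 4.59 and 4.58 on the Con arrays. It rose by 0.23 (adjusted p = 0.0104), from under the receptor level on the Con arrays to just above it on the DOX arrays.

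Lamp1 and Lamp2, the main glycoproteins of the lysosomal membrane, rose with adjusted p-values close to the threshold. Lamp1 lay at 6.15, 6.43 and 5.98 on the DOX arrays, against 5.73, 5.74 and 5.90 on the Con arrays. Lamp2 lay at 5.73, 5.86 and 5.66 on the DOX arrays, against 5.47, 5.54 and 5.33 on the Con arrays. Neither overlapped, with differences of 0.40 for Lamp1 (adjusted p = 0.0405) and 0.30 for Lamp2 (adjusted p = 0.0401). The Lamp1 call was not held when Con replicate 1 or 2, DOX replicate 1 or 2, or 1 of the DOX_IFNg arrays was left out (highest adjusted p of any alternative 0.118), nor with the replicate number as a block. The Lamp2 call depended likewise on Con replicates 1 and 3, DOX replicates 1 and 2, and DOX_IFNg replicates 2 and 3 (0.131). Neither call held when only the 2 groups compared were fitted or with a term for the arrays that share the highest value.

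Scarb2, the receptor that carries beta-glucocerebrosidase to lysosomes, the tetraspanin Cd63 and the transmembrane protein Laptm4a had differences of 0.086, 0.089 and 0.074 that did not pass (adjusted p = 0.471, 0.363 and 0.418). Under quantile normalization Cd63 (difference 0.23, adjusted p = 0.0251) and Laptm4a (0.42, adjusted p = 0.0147) passed as higher. Laptm4a lay between 15.80 and 15.89 on the DOX arrays and between 15.69 and 15.80 on the Con arrays, near the upper end of the scale.

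Of the 10 measured glycosidases and sulfatases, which take sugar chains apart, 5 rose in DOX cells and none fell, with a median of 0.25. Idua, alpha-L-iduronidase, acts on heparan and dermatan sulfate and is lost in mucopolysaccharidosis type I. It lay at 5.74, 5.71 and 5.59 on the DOX arrays, against 4.87, 4.80 and 4.90 on the Con arrays, a difference of 0.82 (SE 0.073, adjusted p = 0.000148). Gaa, the acid alpha-glucosidase that degrades glycogen and is lost in Pompe disease of heart and muscle, lay at 6.42, 6.52 and 6.47 on the DOX arrays, against 5.70, 5.67 and 5.62 on the Con arrays. Neither gene overlapped between the groups. The Gaa difference of 0.80 (SE 0.0515) had the lowest adjusted p of the 38 genes, 2.86e-05.

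Hexa, the alpha subunit of hexosaminidase A, lay at 9.12, 9.42 and 9.13 on the DOX arrays, against 8.45, 8.55 and 8.82 on the Con arrays, a difference of 0.61 (adjusted p = 0.00789). Man2b1, lysosomal alpha-mannosidase, lay at 6.35, 6.35 and 6.04 on the DOX arrays, against 5.71, 5.68 and 5.68 on the Con arrays, also without overlap (1.47-fold, adjusted p = 0.00342). Gla, the alpha-galactosidase lost in Fabry disease, lay at 4.85, 4.93 and 4.93 on the DOX arrays, against 4.49, 4.65 and 4.67 on the Con arrays, a difference of 0.30 (adjusted p = 0.0128). The Con values of Gla were all under the receptor level. All 3 genes were separate between the groups, with the widest gap in Man2b1. The differences of Neu1 (sialidase, 0.20), Naglu (which removes N-acetylglucosamine from heparan sulfate, 0.14), Ids (iduronate sulfatase, 0.10), Gusb (beta-glucuronidase, 0.0098) and Manba (beta-mannosidase, -0.013) did not pass.

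Of the 7 lipid hydrolases and helper proteins 4 rose in DOX cells. Psap encodes prosaposin, the precursor of the saposins that present sphingolipids to their hydrolases, and it lay at 7.43, 7.61 and 7.45 on the DOX arrays, against 6.85, 6.85 and 6.95 on the Con arrays. Asah1, acid ceramidase, lay at 5.32, 5.50 and 5.36 on the DOX arrays, against 4.90, 4.80 and 4.59 on the Con arrays. Both were without overlap, with differences of 0.61 for Psap (adjusted p = 0.000693) and 0.63 for Asah1 (adjusted p = 0.00155). Grn, the precursor of the granulins, lay at 5.55, 5.56 and 5.50 on the DOX arrays, against 5.20, 5.31 and 5.31 on the Con arrays, and rose by 0.27 (adjusted p = 0.00651). Smpd1, acid sphingomyelinase, lay at 7.17, 7.27 and 7.0 on the DOX arrays, against 6.86, 6.42 and 6.67 on the Con arrays. The groups were separate, and the difference was 0.49 (adjusted p = 0.041). The Smpd1 call was not held when Con replicate 2 or 3, DOX replicate 1 or 2, or DOX_IFNg replicate 2 was left out (highest adjusted p of any alternative 0.137), nor in the fit of only the 2 groups compared, with the replicate block or with the term for the shared highest value.

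Ppt1, a palmitoyl-protein thioesterase (0.32, adjusted p = 0.0657), and Npc2, the soluble cholesterol carrier (0.21, adjusted p = 0.105), did not pass in DOX cells. Lipa, the acid lipase of cholesteryl esters and triglycerides, was the gene of the 38 with the most negative difference. It lay at 5.88, 6.01 and 5.93 on the DOX arrays, against 6.04, 6.10 and 6.17 on the Con arrays, so all DOX values were below all Con values, but the difference of -0.16 did not pass (adjusted p = 0.151).

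The spread within the DOX group was shared by many genes. DOX replicate 3 was the lowest of the DOX arrays for 12 of the 20 genes that rose (60.0%), and also for 1560 of the 2423 genes of the whole table that rose (64.4%). The median deviation of the 38 genes from their Con means was 0.28, 0.33 and 0.22 on DOX replicates 1 to 3. Without DOX replicate 3 the count remained at 20 genes higher. The array groups that share the table's highest value are uneven over the treatments. With a term for them in the fit 17 genes rose in DOX cells.

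Markers of other cell types were set beside these counts. Of 15 macrophage markers, genes of cells rich in lysosomes, only Cd14 averaged above the receptor level, and Cd14 was the only one to rise in DOX cells (0.25, adjusted p = 0.0483). The log2 of the summed linear values of the 15 was 8.01 to 8.09 on the DOX_IFNg arrays, 8.06 to 8.15 on the DOX arrays and 8.0 to 8.10 on the Con arrays. The defining macrophage markers Ptprc, Adgre1 and Csf1r averaged under the receptor level. Of 9 fibroblast markers 4 fell and 1 rose in DOX cells, and likewise 4 and 1 in DOX_IFNg cells. Their sum was 16.65 to 16.70 on the DOX_IFNg arrays, 16.67 to 16.78 on the DOX arrays and 17.70 to 17.96 on the Con arrays. Most of that sum is the collagen gene Col1a1, which averaged 16.67 in DOX cells and 17.80 in Con cells. Of 12 skeletal muscle markers 4 fell and 3 rose in DOX cells, and 5 fell and 1 rose in DOX_IFNg cells. Their sums were 8.99 to 9.14 on the DOX_IFNg arrays, 9.12 to 9.30 on the DOX arrays and 9.82 to 10.05 on the Con arrays. Acta1 (8.41) and Myog (8.18) were the highest of these 12 in Con cells, and both fell. Myod1, at 6.03 in Con cells, was among the 3 that rose in DOX cells (0.76, adjusted p = 0.0182). Of 14 heart muscle markers Tnnt2 alone passed the test in DOX cells, as lower, and 2 passed as lower in DOX_IFNg cells. Their sums were 8.36 to 8.38 on the DOX_IFNg arrays, 8.40 to 8.47 on the DOX arrays and 8.86 to 9.0 on the Con arrays. None of 8 endothelial markers was above the receptor level, and their sums were 6.97 to 7.01, 6.96 to 7.04 and 6.96 to 7.05 in the same order of groups. The part of these shifts in the lysosomal counts was not tested.

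Further genes of the pathway came from lists of related roles. Their counts in DOX cells stand beside the 8.06% of all genes that rose and the 7.53% that fell. The largest share that fell in any of these lists was 11.1%, in the sorting genes. Of 24 further genes, mostly other lysosomal hydrolases, 9 rose in DOX cells and 1 (Pcyox1) fell, with a median difference of 0.033. This hydrolase list also holds genes that are not hydrolases, such as Hgsnat. Man2b2, another lysosomal alpha-mannosidase, averaged 7.30 ± 0.16 in DOX cells and 5.94 ± 0.05 in Con cells (SD, n = 3 arrays each), and limma gave 1.36 (adjusted p = 2.18e-05). The acid phosphatase Acp2 (0.73), the heparan acetyltransferase Hgsnat (0.63) and the aspartylglucosaminidase Aga (0.54) also rose.

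Of 24 other lysosomal membrane proteins 11 rose in DOX cells and none fell (limma, 13 with an unadjusted p under 0.05 in either direction). Clcn7, the chloride-proton exchanger of the lysosome, averaged 7.69 ± 0.18 in DOX cells and 6.15 ± 0.06 in Con cells. Ctns, the cystine exporter, averaged 7.07 ± 0.13 in DOX cells and 5.64 ± 0.11 in Con cells. Their differences were 1.54 for Clcn7 (adjusted p = 3.57e-05) and 1.43 for Ctns (adjusted p = 1.84e-05), each larger than that of any of the 7 membrane proteins above. The amino acid carrier Slc36a1 rose by 0.69, and the sialic acid carrier Slc17a5 by 0.59. The Slc17a5 call was lost with a term for the arrays that share the highest value (adjusted p = 0.0647).

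Of 18 genes that sort enzymes to the lysosome 6 rose in DOX cells and 2 fell. The 2 genes for the phosphotransferase that makes the mannose 6-phosphate tag moved in opposite directions. Gnptg, its gamma subunit, averaged 7.30 ± 0.14 in DOX cells and 5.93 ± 0.08 in Con cells, a difference of 1.37 (adjusted p = 4e-05). Gnptab, which encodes the catalytic subunits, averaged 7.48 ± 0.12 in DOX cells and 7.97 ± 0.07 in Con cells, a difference of -0.50 (adjusted p = 0.00266). The retromer subunit Vps26a rose by 0.95 (adjusted p = 2.6e-05). Vps35, another retromer subunit, rose by 0.96 (adjusted p = 0.025), which no longer passed when Con replicate 2, Con replicate 3 or any of the DOX arrays was left out, or with the term for the shared highest value, where the difference was 0.57.

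Of 23 genes that regulate the MiT/TFE factors at the lysosome or are known as their targets 9 rose in DOX cells and 2 fell, and leaving out any single array gave 7 to 10 higher and 0 or 1 lower. Rragc, a Rag GTPase that recruits mTORC1 and the factors to the lysosome, averaged 8.38 ± 0.16 in DOX cells and 7.11 ± 0.03 in Con cells, a difference of 1.27 (adjusted p = 5.84e-05). Gpnmb, a transmembrane glycoprotein and known target of the factors, rose by 1.19 (adjusted p = 4.39e-05). Rraga, another Rag GTPase, rose by 0.71 (adjusted p = 0.00437), and by 1.07 after quantile normalization. Fnip1, the partner of folliculin, rose by 1.41 (adjusted p = 0.0188), which no longer passed when Con replicate 3, DOX replicate 1 or DOX replicate 3 was left out, or with the term for the shared highest value (0.86). Of 8 measured cathepsin inhibitors none passed the test in DOX cells (limma, 3 with an unadjusted p under 0.05), and leaving out single arrays gave 0 or 1 higher.

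Of 16 measured subunits of the vacuolar ATPase, the pump that acidifies lysosomes, 11 rose in DOX cells and none fell, led by Atp6v1d (3.08, adjusted p = 5.9e-06) and Atp6v0d1 (1.47, adjusted p = 0.000421). Of 21 measured autophagy genes 11 rose and none fell, led by the cargo receptor Sqstm1 (2.57, adjusted p = 1.35e-05) and the conjugation enzyme Atg3 (1.02, adjusted p = 5.32e-05).

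**Figure D4:**
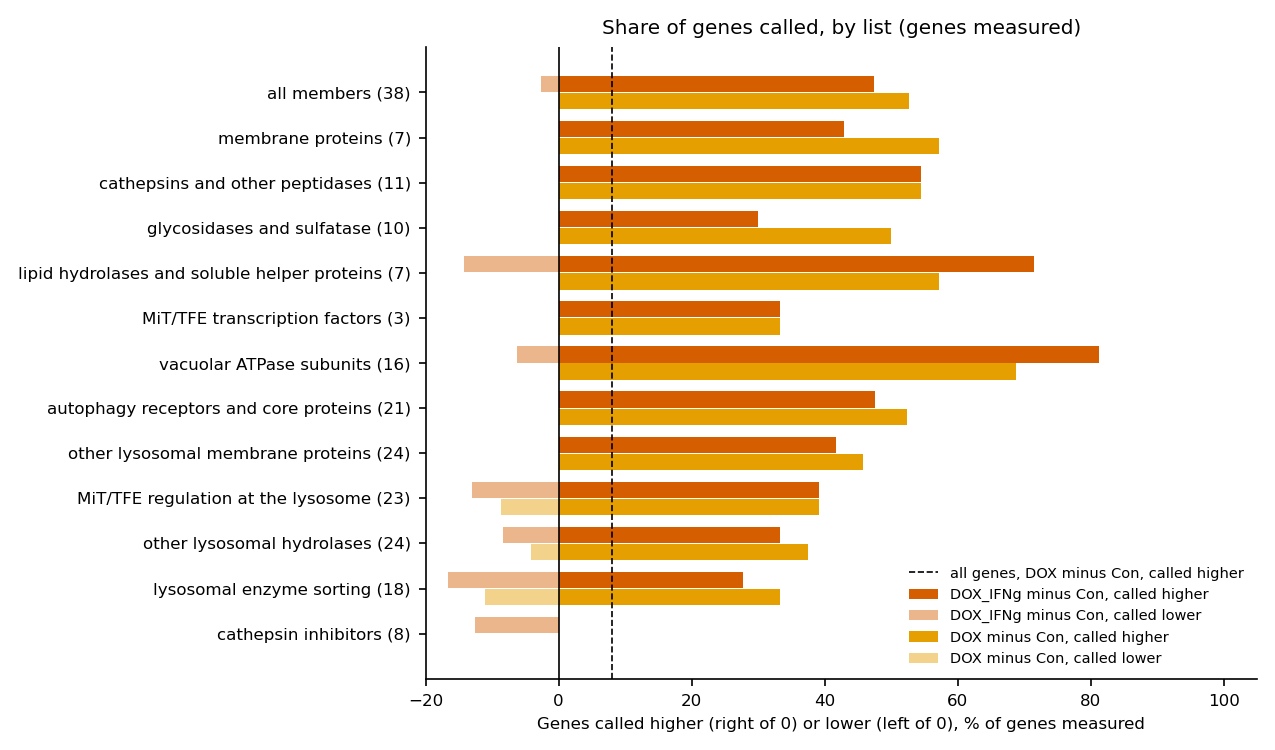
Share of measured genes (horizontal axis, percent) that rose or fell at adjusted p under 0.05 in each list of lysosomal and autophagy genes, for DOX_IFNg minus Con and DOX minus Con, with a dashed line at the 8.06% of all genes that rose in DOX minus Con. The vacuolar ATPase subunits (11 of 16 higher in DOX cells) and the 38 lysosomal genes (20 of 38) lie far beyond that line.

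Cells given doxorubicin together with interferon gamma also had higher RNA of many lysosomal genes than Con cells. In DOX_IFNg cells 18 of the 38 genes rose and Lipa fell, where 8.01% of all genes rose and 9.41% fell. The median difference was 0.27, and 32 of the 38 differences were positive. On every DOX_IFNg array 23 genes lay above every Con array, against 14.5% of all genes, and 2 lay below, against 18.5%. The comparison shares its Con arrays with that of DOX cells, so the 2 sets of values are not independent. By role, 3 of 7 membrane proteins, 6 of 11 peptidases, 3 of 10 glycosidases and sulfatases, 5 of 7 lipid hydrolases and helpers and 1 of 3 transcription factors rose.

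The same 4 genes stood at 2-fold or more. Ctsf lay at 7.15, 7.28 and 7.69 on the DOX_IFNg arrays, against 5.41, 5.31 and 5.41 on the Con arrays, a 3.99-fold rise (difference 2.00, SE 0.18, adjusted p = 0.000143). Tpp1 lay at 10.51, 10.43 and 10.35 on the DOX_IFNg arrays, against 8.78, 8.69 and 8.21 on the Con arrays, a 3.66-fold rise (adjusted p = 5.61e-05). Ctsl averaged 7.97 ± 0.17 in DOX_IFNg cells and 6.89 ± 0.21 in Con cells, and Ctsb 8.99 ± 0.12 in DOX_IFNg cells and 7.96 ± 0.02 in Con cells (SD, n = 3 arrays each). No value of these 4 genes overlapped between the groups. Mcoln1 lay at 6.15, 6.28 and 6.46 on the DOX_IFNg arrays, against 5.40, 5.50 and 5.45 on the Con arrays, a difference of 0.85 (adjusted p = 0.000427). Tfe3 lay at 5.20, 5.32 and 5.37 on the DOX_IFNg arrays, against 4.72, 4.73 and 4.68 on the Con arrays, a difference of 0.59 (adjusted p = 0.000287).

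Lipa lay at 5.72, 5.88 and 5.88 on the DOX_IFNg arrays, against 6.04, 6.10 and 6.17 on the Con arrays. All DOX_IFNg values were below all Con values, and the difference was -0.28 (SE 0.066, adjusted p = 0.0213). Leaving out Con replicate 2, Con replicate 3 or DOX_IFNg replicate 1 ended the call (highest adjusted p 0.0668).

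Of the 38 genes 16 passed as higher against Con in both treated groups, Gla, Hexa, Lamp1 and Smpd1 only in DOX cells, Npc2 and Ppt1 only in DOX_IFNg cells, and the other 16 as higher in neither. None of these genes differed between the treated groups at an adjusted p under 0.05. Ppt1 lay at 6.23, 6.32 and 6.39 on the DOX_IFNg arrays, against 6.12, 6.03 and 5.74 on the Con arrays, a difference of 0.35 (adjusted p = 0.0449). Npc2 lay at 4.48, 4.51 and 4.47 on the DOX_IFNg arrays, against 4.09, 4.26 and 4.28 on the Con arrays, a difference of 0.27 (adjusted p = 0.0363). The groups were separate for both, and both sat close to the threshold. Leaving out Con replicate 2, Con replicate 3 or any of the treated arrays ended the Ppt1 call (highest adjusted p 0.124), as did the fit of only the 2 groups compared, the replicate block and the term for the shared highest value. Leaving out Con replicate 1, Con replicate 2, DOX replicate 3 or any of the DOX_IFNg arrays ended that of Npc2 (0.105), whose values all lay under the receptor level.

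Lamp2 averaged 5.77 ± 0.10 in DOX_IFNg cells and 5.45 ± 0.11 in Con cells, and it rose by 0.32 (adjusted p = 0.0282). Npc1 averaged 4.77 ± 0.03 in DOX_IFNg cells and 4.58 ± 0.01 in Con cells, and it rose by 0.19 (adjusted p = 0.026). Leaving out Con replicate 1, Con replicate 3, DOX_IFNg replicate 2 or DOX_IFNg replicate 3 ended the Lamp2 call (highest adjusted p 0.095), as did the fit of only the 2 groups compared. Leaving out any of the Con arrays, DOX_IFNg replicate 2 or DOX_IFNg replicate 3 ended that of Npc1 (0.0899), as did the fit of only the 2 groups compared and the replicate block. DOX_IFNg replicate 1 was the lowest of its group for 10 of the 18 genes that rose (55.6%), against 47.8% of the 2407 genes of the whole table that rose.

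The counts of the further lists in DOX_IFNg cells stand beside the 8.01% of all genes that rose and the 9.41% that fell. Of the 24 genes of the hydrolase list 8 rose and 2 fell (8.33%, near the share of all genes). Of 24 other membrane proteins 10 rose. Of 18 sorting genes 5 rose and 3 fell, and of 23 MiT/TFE regulators and targets 9 rose and 3 fell. Leaving out single arrays gave 0 to 2 lower genes of the hydrolase list, 1 to 3 lower sorting genes and 0 to 3 lower regulators. Clcn7 averaged 7.55 ± 0.15 and Ctns 7.18 ± 0.06 in DOX_IFNg cells, against 6.15 ± 0.06 and 5.64 ± 0.11 in Con cells. Of the cathepsin inhibitors Cstb, stefin B, fell by 0.40 (adjusted p = 0.013), a call that DOX_IFNg replicate 2 decided (adjusted p = 0.0533 without it). Of the 16 vacuolar ATPase subunits 13 rose and 1 fell, and of the 21 autophagy genes 10 rose. In that list Gabarapl1, an Atg8-family protein, rose by 0.58 (adjusted p = 0.0187), a call that ended when Con replicate 1, Con replicate 2, DOX_IFNg replicate 2 or DOX_IFNg replicate 3 was left out (highest adjusted p 0.0688).

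Whether interferon gamma altered the lysosomal genes on top of doxorubicin was read from DOX_IFNg minus DOX. Here limma called 0 of the 38 genes, and 0% of all 30050 genes in either direction, with a lowest adjusted p of 0.506. No gene of the whole table thus passed as a response to interferon gamma. The comparison therefore cannot say that the lysosomal genes in particular were left unchanged. At an unadjusted p under 0.05 stood 2 of the 38 genes, Hexa and Gla, against 5.0% of all genes. The median difference of the 38 was -0.041, with 9 positive. Manba and Grn lay higher on every DOX_IFNg array than on every DOX array (4.56% of all genes), and Scarb2, Gla, Gusb, Hexa and Psap lay lower (6.69% of all genes). The 95% intervals of the 38 genes extended 0.10 to 0.41 to either side of the difference, with a median of 0.16.

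Hexa lay at 8.79, 8.96 and 8.98 on the DOX_IFNg arrays, against 9.12, 9.42 and 9.13 on the DOX arrays, a difference of -0.31 with an interval of -0.58 to -0.05 (adjusted p over all genes of at least 0.976, as for all 38). Gla lay at 4.81, 4.71 and 4.71 on the DOX_IFNg arrays, against 4.85, 4.93 and 4.93 on the DOX arrays, a difference of -0.16 with an interval of -0.30 to -0.01. Neither overlapped, and neither passed the correction over all genes. Psap averaged 7.34 ± 0.11 in DOX_IFNg cells and 7.50 ± 0.10 in DOX cells, a difference of -0.16 with an interval of -0.33 to 0.01. Grn averaged 5.64 ± 0.02 in DOX_IFNg cells and 5.54 ± 0.03 in DOX cells, a difference of 0.10 with an interval of -0.01 to 0.21.

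For the genes with the strongest rises against Con the difference between the treated groups was small beside its interval. It was -0.18 for Ctsf (-0.59 to 0.23), -0.03 for Tpp1 (-0.35 to 0.29), -0.02 for Ctsl (-0.31 to 0.26), -0.06 for Ctsb (-0.29 to 0.16) and -0.12 for Mcoln1 (-0.33 to 0.09). Ctss, which interferon gamma is known to induce in antigen-presenting cells, lay at 3.95, 3.76 and 3.90 on the DOX_IFNg arrays, against 3.93, 3.96 and 3.96 on the DOX arrays. Its difference was -0.08 (-0.23 to 0.07), with all values under the receptor level. A change smaller than these intervals was not detectable with 3 arrays in a group. The intervals are not adjusted over all genes, and Hexa and Gla, whose changes exceeded theirs, still did not pass that correction.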

How the data were processed

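The 38 genes were measured on 9 Affymetrix arrays, 3 each of the DOX_IFNg, DOX and Con groups. The authors deposited 1 table of values that lie between 2.29 and 19.9 and were read as log2 intensities from their range. RMA was used, per the submitters' processing notes, with version and settings not given in the sources used here. RMA can understate changes of dim genes. Of 65527 clusters, 30376 had a single symbol in the platform annotation, 2117 several and 33034 none listed. The single-symbol clusters gave 30050 genes, with the highest-mean cluster taken for 245 genes with several. All columns belonged to the 9 arrays. Depth is not defined for arrays, and the number of arrays limits the precision.

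Differences were fitted with limma 3.58.1 (lmFit and eBayes, R 4.3.3) on group means of all 9 arrays, with 6 residual and 2.41 prior degrees of freedom, a two-sided moderated test and Benjamini-Hochberg adjustment over all genes of a comparison. The fit was tested on simulated data. Figures and tables used Python 3.11.15, pandas 2.3.3, numpy 2.4.6 and matplotlib 3.10.9. RefSeq tables (GRCm38.p6) gave gene types and promoter windows, and motifs were counted on both strands. Groups and replicate numbers came from the labels. Deviations of same-numbered arrays of different groups had correlations between -0.16 and 0.36, and those of unlike numbers between -0.40 and 0.28. These ranges overlap, and the numbers were not taken as pairs in the main fit. All 40 genes were named, and of each further list up to 4 genes that passed the test per comparison, by size of change. The alternatives were fits of only the 2 groups compared, quantile normalization, dim genes left out, protein-coding genes only, the mean of a gene's clusters, an intensity trend with robust priors, a replicate block, a term for arrays that share the table's highest value, a stricter threshold and each array left out. The genes and lists were chosen with earlier results of these data known.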

Additional observations from a re-analysis of the deposited data

Results flagged for a closer look

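The cluster annotated with both Ctsd, the aspartic protease cathepsin D, and Ifitm10 was outside the comparisons because its signal cannot be given to either gene by name. It lay at 5.69, 5.71 and 5.91 on the DOX_IFNg arrays, at 5.85, 6.02 and 5.71 on the DOX arrays and at 5.12, 5.27 and 5.29 on the Con arrays. The DOX minus Con difference was 0.63, with no overlap between the groups, and it was not tested. The cluster shared by Glb1 and Tmppe averaged 4.85 ± 0.06 in DOX_IFNg cells, 4.95 ± 0.05 in DOX cells and 5.01 ± 0.05 in Con cells (SD, n = 3 arrays each).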

How the results depend on the processing

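No call of the 38 genes changed direction under any alternative listed in the processing, and 17 of the 20 calls in DOX minus Con and 14 of the 19 in DOX_IFNg minus Con were kept under all 17 alternatives other than the stricter threshold. The count higher in DOX minus Con, 20, ranged from 15 at an adjusted p under 0.01 to 23 under quantile normalization, and from 17 to 20 when single arrays were left out. The count higher in DOX_IFNg minus Con, 18, ranged from 13 to 22 under the same settings and from 14 to 17 when single arrays were left out. The count lower in DOX_IFNg minus Con, 1 (Lipa), was 0 at an adjusted p under 0.01, by the stricter threshold itself, and ranged from 0 to 1 when single arrays were left out. DOX_IFNg minus DOX gave 0 of the 38 genes under each alternative. With the replicate number as a block 18 genes were higher in DOX minus Con, 16 higher and 1 lower in DOX_IFNg minus Con, and 0 in DOX_IFNg minus DOX. Correlations of deviations were -0.16 to 0.36 for same-numbered arrays and -0.40 to 0.28 for the other pairs of different groups. The highest were those of Con with DOX_IFNg at replicate 1 (0.36) and at replicate 3 (0.33). Of all genes called, 51.7% were higher in DOX minus Con on the deposited values and 61.7% after quantile normalization, and 46.0% and 57.5% in DOX_IFNg minus Con. Of the 38 genes 9 lay under the receptor level, where the arrays limit what can be seen.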
